A study of Mus musculus with 11 samples.

Results

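The G protein alpha subunits examined here were 10 genes: Gnaz, which was chosen by its measured values, a strong rise of its RNA in Rfx2-/- testis, and 9 relatives taken by gene family, namely Gnai1, Gnai2, Gnai3, Gnao1, Gnaq, Gna11, Gna12, Gna13 and Gnas. All 10 were among the 23074 genes counted in the series, and all 10 were among the 15745 genes tested. RNA was sequenced from decapsulated testes of 5 wild type mice (replicates 1 to 5) and 6 Rfx2-/- mice (replicates 6 to 11) at postnatal day 21 (P21). RFX2 is a transcription factor of the winged helix family that acts in the germ line around and after meiosis, and at P21 the first wave of germ cells has just reached the earliest round spermatids. The knockout lacks exon 7 of Rfx2 in all cells. The methods describe a line crossed to mice with a universal ACTB-driven Cre and kept on a mixed background, from C57BL/6, 129/Sv and FVB/N. They also describe a further line backcrossed onto C57BL/6, and do not state which line gave these testes.

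Heterotrimeric G proteins couple receptors at the plasma membrane to enzymes and channels inside the cell. The alpha subunit binds GTP when a receptor is engaged, separates from the beta and gamma subunits and stays active until it hydrolyses the GTP. The alpha subunits fall into classes by their partners: Gs (Gnas) stimulates adenylyl cyclase, the Gi/o/z class (Gnai1, Gnai2, Gnai3, Gnao1, Gnaz) inhibits it or acts through the released beta and gamma subunits, the Gq class (Gnaq, Gna11) activates phospholipase C beta, and Gna12 and Gna13 form a class of their own. Gnaz encodes Gz, known best from neurons and platelets. It hydrolyses GTP slowly and, unlike its closest relatives, is not a substrate of pertussis toxin.

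The ends of the coding sequences show this difference and are given for that reason. Pertussis toxin modifies a cysteine at the fourth codon from the end of Gi and Go. The last 8 codons before the stop are printed 5′ to 3′ in the sense of transcription, from the GENCODE annotation and transcripts of GRCm38, with the fourth codon from the end in capitals. All 10 stretches lie within a single exon, in the last part of the coding sequence.
Gnaz, chr10:75015186-75015209, plus strand: aatctcaagtacATCggcctttgc
Gnai1, chr5:18267022-18267045, minus strand: aacctaaaagacTGTggtctcttc
Gnai2, chr9:107615638-107615661, minus strand: aacctgaaggacTGTggcctcttc
Gnai3, chr3:108109425-108109448, minus strand: aacttaaaggaaTGTgggctttat
Gnao1, chr8:93967029-93967052, plus strand: aatctccggggcTGCggcttgtac
Gnaq, chr19:16383368-16383391, plus strand: aacctgaaggagTACaatctggtc
Gna11, chr10:81530798-81530821, minus strand: aacctgaaggagTACaacctggtg
Gna12, chr5:140760552-140760575, minus strand: aacctgaaagacATCatgctgcag
Gna13, chr11:109396460-109396483, plus strand: aacctgaagcagCTCatgctgcag
Gnas, chr2:174346362-174346385, plus strand: catctccgccaaTACgagctgctc
A cysteine codon, TGT or TGC, stood at this position in Gnai1, Gnai2, Gnai3 and Gnao1. Gnaz carried the isoleucine codon ATC there, as did Gna12, and none of the 5 members outside the Gi/o/z class carried a cysteine codon. Over the whole coding sequence, Gnaz was most like Gnai2 (68.9% of aligned nucleotides identical) and least like Gna13 (56.7%). Gnaq and Gna11 were the closest pair of all, at 80.5%. No stretch of 46 nt in the annotated transcripts of Gnaz, Gnai1, Gnai2, Gnai3 or Gna11 occurred in a transcript of any other gene, so their reads could be told apart at this length.

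Library totals lay between 22232097 and 29769483 counts. Differences of 1 gene between mice are given in CPM, counts relative to the scaled library total, and levels of different genes are compared in RPKM, which is CPM per kilobase of merged exons. Rfx2 itself, counted over all of its exons, averaged 326 ± 118 CPM in the wild type mice (SD, n = 5) and 304 ± 14.6 CPM in the Rfx2-/- mice (SD, n = 6), and such a count does not check the loss of exon 7. Mice differed in germ cell markers within each genotype. The summed CPM of 6 round spermatid markers ran from 43.4 to 451 in wild type and from 152 to 649.6 in Rfx2-/- mice, and that of 6 Sertoli cell markers from 489 to 796 and from 456 to 565. Wild type replicates 3 and 5 had the lowest round spermatid scores and the highest Sertoli scores of the wild type mice, where a score is the mean log2 CPM of a marker list. In RNA from whole testis, fewer cells of a type and less RNA per cell cannot be told apart.

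Gnaz was a low abundance transcript in wild type testis and a well expressed one in Rfx2-/- testis. Wild type replicates 1 to 5 held 6.06, 7.06, 10.4, 7.85 and 11.03 CPM of it. In the 6 Rfx2-/- mice it ranged from 81.4 to 94.7 CPM with a median of 85.5. Every Rfx2-/- mouse therefore lay far above every wild type mouse, and the mice within a genotype differed by less than 2-fold. The means were 8.48 ± 2.15 CPM (SD, n = 5) and 87.0 ± 5.53 CPM (SD, n = 6), which rest on 172 to 366 reads per wild type mouse and 1831 to 2294 reads per Rfx2-/- mouse. The log2 fold change was 3.36 with a standard error of 0.16, or 10.2-fold. These values chose the gene and are a description, so no test is given. The relative spread was larger in wild type (SD 25.3% of the mean) than in Rfx2-/- testis (6.36%).

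**Figure D1:**
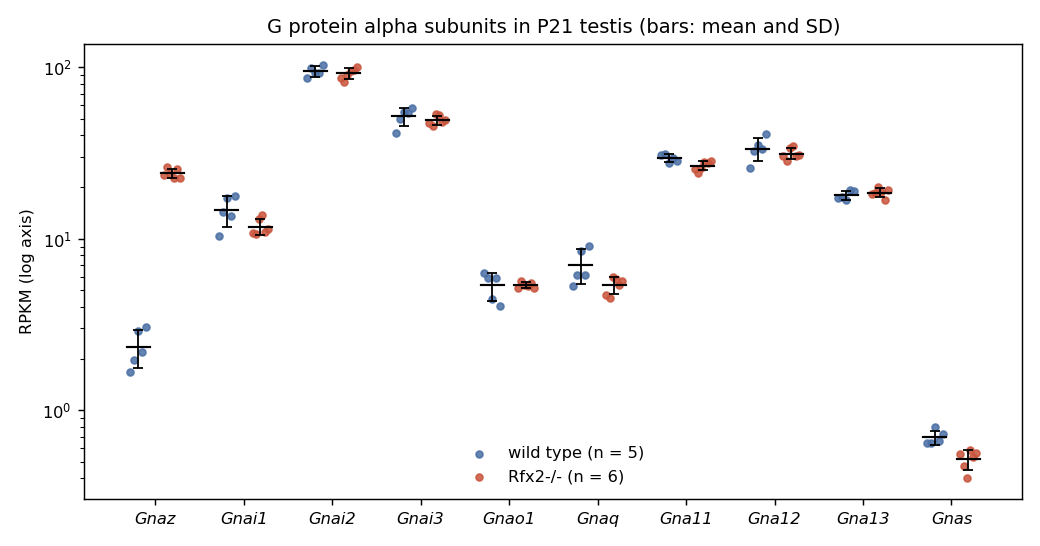
RPKM of the 10 alpha subunit genes in each mouse on a log axis (points: single mice, blue 5 wild type, red 6 Rfx2-/-; bars: mean and SD). Gnaz moves from 2.35 to 24.1 RPKM, while the points of the genotypes overlap in the other members, apart from Gnas, in which every Rfx2-/- mouse is lower.

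Among the alpha subunits of wild type testis, Gnai2 was the most abundant, with 94.9 ± 6.72 RPKM (SD, n = 5). Gnai3 followed with 51.7 ± 6.42 RPKM (SD, n = 5), then Gna12 with 33.5 ± 5.34, Gna11 with 29.6 ± 1.51, Gna13 with 17.95 ± 1.10, Gnai1 with 14.7 ± 3.02, Gnaq with 7.05 ± 1.63, Gnao1 with 5.34 ± 1.0004, Gnaz with 2.35 ± 0.594 and Gnas with 0.694 ± 0.0662 RPKM. Neighbours in this order overlapped between mice for Gna12 and Gna11, for Gna13 and Gnai1, and for Gnaq and Gnao1, and not for the other neighbours. Gnai2 and Gnai3 thus accounted for 35.5% to 38.3% and 18.3% to 21.1% of the summed RPKM of the 10 genes in single mice, and Gnaz for 0.743% to 1.1%. The level of Gnas is uncertain because of an exon overlap described below. Ranks, shares and sums of the 10 genes, here and in the next paragraph, therefore hold only for Gnas as counted.

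In Rfx2-/- testis Gnaz moved from rank 9 to rank 5, with 24.1 ± 1.53 RPKM (SD, n = 6), next to Gna11 with 26.6 ± 1.63 RPKM (SD, n = 6). The ranges of these neighbours overlapped, and 5 of 6 mice had more Gna11 than Gnaz. Gna13, below them, had 18.6 ± 1.05 RPKM and less than Gnaz in 6 of 6 mice. Gnaz supplied 9.12% of the summed RPKM of the 10 genes, between 8.12% and 10.7% in single mice. The sum itself was 258 ± 20.9 RPKM (SD, n = 5) in wild type and 265 ± 12.5 RPKM (SD, n = 6) in Rfx2-/- testis, and without Gnaz it was 255 ± 20.4 and 241 ± 13.5 RPKM. The other 9 genes kept their order except that Gnaq and Gnao1, which overlapped in both genotypes, changed places. With exons of all transcripts in the RPKM, Gnaz stood at rank 4 in Rfx2-/- testis, above Gna11 (22.2 ± 1.35 RPKM) in 4 of 6 mice, and Gnaq stayed above Gnao1 in both genotypes, with 6.43 against 4.27 RPKM in wild type and 4.88 against 4.29 RPKM in Rfx2-/- testis.

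None of the 9 relatives was called between the genotypes. A call needed an adjusted p (Benjamini-Hochberg) of 0.01 or less in edgeR's quasi-likelihood test, at any fold change, a limit that 2.67% of all tested genes passed (1.94% lower and 0.73% higher). DESeq2 and limma voom also called 0 of the 9, where DESeq2 called 5.79% of all tested genes lower and 7.28% higher and voom 4.33% and 2.33%. An unadjusted edgeR p of at most 0.05 was reached by 4 of the 9, all lower, and by 23.7% of all tested genes lower and 18.1% higher. At an adjusted p of at most 0.05, 1 of the 9 passed, Gnas, where 14.9% of all tested genes did (8.78% lower and 6.15% higher). The median log2 fold change of the 9 was -0.10, against -0.05 over all tested genes.

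**Figure D2:**
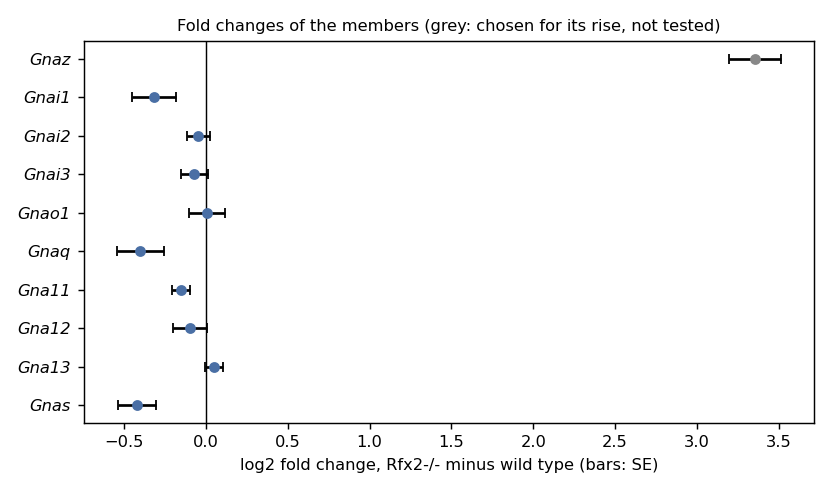
Log2 fold change of each member, Rfx2-/- minus wild type, with its standard error (n = 5 and 6 mice; grey: Gnaz, chosen for its rise and not tested). Gnaz lies at 3.36 and the other members between -0.42 and 0.05.

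In the Gi/o/z class, the relatives of Gnaz differed between the genotypes by little. Gnai2, the widely expressed Gi subunit, had 207, 239, 224, 223 and 249 CPM in the wild type mice (in the order of their replicate numbers, here and below) and from 197 to 242 CPM (median 223) in Rfx2-/- mice. The genotypes overlapped almost fully (log2 fold change -0.05, SE 0.07, edgeR adjusted p = 0.631). Gnai3, a further widely expressed Gi subunit, had 135, 163, 179.9, 176 and 188 CPM in wild type and from 148 to 173 CPM (median 159) in Rfx2-/- mice (log2 fold change -0.07, edgeR adjusted p = 0.537). All Rfx2-/- mice lay within the wild type range.

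Gnai1, the remaining Gi subunit, had 32.7, 44.9, 54.4, 42.3 and 55.7 CPM in wild type and from 33.5 to 43.2 CPM (median 35.1) in Rfx2-/- mice. Wild type replicate 1, at 32.7, was below all Rfx2-/- mice, and replicates 3 and 5 were the highest (log2 fold change -0.32, SE 0.13, edgeR adjusted p = 0.101). Gnao1, the Go subunit best known from neurons, had 55.9, 52.4, 39.5, 52.1 and 36.0 CPM in wild type and from 45.5 to 50.4 CPM (median 47.1) in Rfx2-/- mice. Here wild type replicates 3 and 5 were the lowest, the reverse of Gnai1, and the genotypes overlapped (log2 fold change 0.01, SE 0.11, edgeR adjusted p = 0.959).

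Both Gq subunits had lower means in Rfx2-/- testis, without passing the test. Gnaq had 30.02, 34.9, 48.0, 34.9 and 51.1 CPM in wild type and from 25.6 to 33.7 CPM (median 31.1) in Rfx2-/- mice (log2 fold change -0.40, SE 0.14, edgeR adjusted p = 0.0719). Of the wild type mice, replicate 1 alone lay among the Rfx2-/- mice. Gna11 varied least of all members in wild type, with 105, 107, 94.6, 101 and 97.3 CPM, and ranged from 82.8 to 96.9 CPM (median 91.2) in Rfx2-/- mice (log2 fold change -0.15, SE 0.06, edgeR adjusted p = 0.0729). Its lowest wild type mouse, replicate 3, lay within the upper range of the Rfx2-/- mice.

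Of the G12/13 class, Gna12 had 88.5, 111, 119.7, 114 and 139 CPM in wild type and from 97.4 to 119 CPM (median 104) in Rfx2-/- mice (log2 fold change -0.10, edgeR adjusted p = 0.473). Every Rfx2-/- mouse lay within the wild type range. The annotated exons of Gna12 share 456 of their 3416 nt with Amz1 on the opposite strand, and Amz1 had only 0.582 ± 0.0823 CPM (SD, n = 5) and 0.435 ± 0.134 CPM (SD, n = 6). Gna13 had 111, 113, 107, 124 and 122 CPM in wild type and from 108 to 129 CPM (median 119.6) in Rfx2-/- mice (log2 fold change 0.05, edgeR adjusted p = 0.510). It shares 151 of 6421 exon nt with the antisense gene Gm11696, which had 4.24 ± 1.04 CPM (SD, n = 5) and 5.13 ± 0.885 CPM (SD, n = 6; edgeR adjusted p = 0.264).

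Gnas, the stimulatory subunit, came closest to a call. It had 6.66, 6.69, 8.26, 6.87 and 7.51 CPM in wild type and from 4.16 to 6.09 CPM (median 5.63) in Rfx2-/- mice. All 6 Rfx2-/- mice were below the lowest wild type mouse, as was so in 5.2% of all tested genes (log2 fold change -0.42, SE 0.12, edgeR adjusted p = 0.0396). These values rest on 189 to 291 reads per wild type mouse and 90 to 144 per Rfx2-/- mouse. Exons of the counted gene Gm20721 on the opposite strand cover 96.4% of the coding part of the Gnas transcript whose end is printed above, and reads overlapping exons of different genes were not counted. That overlap is taken from GENCODE M21, a later annotation than that of the authors, and whether it removed Gnas reads depends on the strandedness of the counting, which is not given in the sources used here. Gm20721 had 1 read in a single mouse and 0 in the other 10. The place of Gnas at the end of the order of levels is therefore uncertain, and with it the ranks, shares and sums that include Gnas. How far its reads and fold change stand for the stimulatory subunit is uncertain for the same reason. Without wild type replicates 3 and 5 its log2 fold change was -0.32 (edgeR adjusted p = 0.162), an alternative chosen after the values were seen.

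The members differed in how they ran with the marker scores of the wild type mice, which is a description over 5 mice. In Gnaz, Gnai1, Gnai3, Gnaq, Gna12 and Gnas, 6 of the 10 members, wild type replicates 3 and 5 were the 2 highest and replicate 1 was the lowest. Sertoli scores of these mice were 6.45, 6.58 and 6.00, and those of Rfx2-/- mice lay between 5.83 and 6.08, below all wild type mice but replicate 1. With the Sertoli score as a covariate, the log2 fold changes of Gnai1, Gnai2, Gnai3, Gnaq and Gna12 became positive, at 0.13, 0.13, 0.18, 0.09 and 0.24, and that of Gnao1 was -0.32, with edgeR adjusted p of 0.0738 or more. Gnaz remained at 3.75 in the same fit. Markers of neurons and platelets, where Gz is best known, were summed too, and the part of such cells in the Gnaz difference was not tested. The 5 neuronal markers overlapped between the genotypes, with sums of 97.9 to 179 CPM in wild type and 96.0 to 120.0 CPM in Rfx2-/- testis. Sums of the 5 platelet markers were 6.55 to 8.53 CPM and 5.22 to 6.43 CPM, lower in every Rfx2-/- mouse. Of all tested genes, taken singly, 5.2% were lower in every Rfx2-/- mouse. Only 3 of the platelet markers were tested, and 0 were called. Their median log2 fold change was -0.10, against -0.05 over all tested genes. Ppbp had no more than 3 counts in any mouse.

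**Figure D3:**
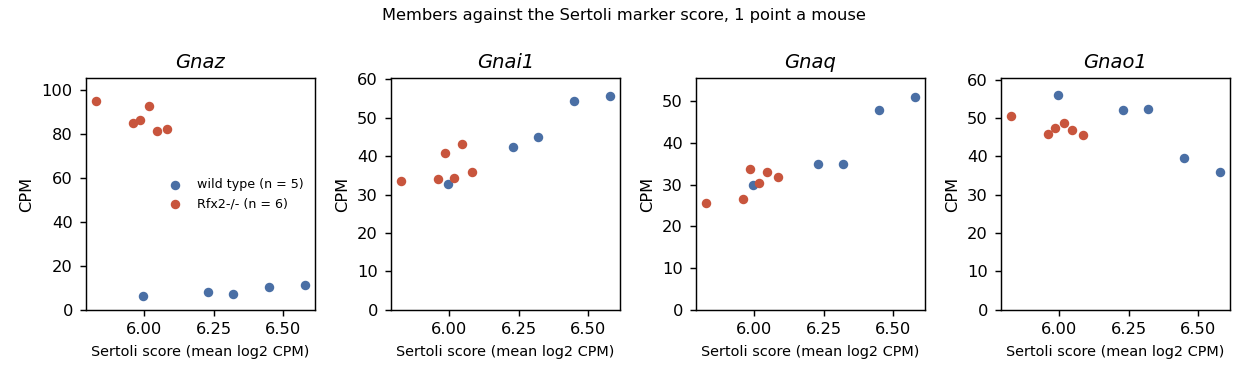
CPM of Gnaz, Gnai1, Gnaq and Gnao1 against the Sertoli marker score, the mean log2 CPM of 6 markers (1 point a mouse, blue 5 wild type, red 6 Rfx2-/-). The wild type mice with the highest scores, 6.45 and 6.58, have the highest Gnai1 and Gnaq and the lowest Gnao1. Their Gnaz, 10.4 and 11.03 CPM, is the highest of the wild type mice, and Gnaz also separates by genotype.

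Gnaz (ENSMUSG00000040009) lies on the plus strand of chromosome 10 of GRCm38, from 74967177 to 75016907. It sits inside Rsph14, a gene for a radial spoke protein of motile cilia, which is transcribed from the opposite strand between 74957477 and 75032586, and the whole of Gnaz lies in 1 intron of Rsph14, from 74961733 to 75022303. Rsph14 had 13.5, 8.44, 4.03, 9.50 and 3.21 CPM in wild type and from 2.404 to 3.30 CPM (median 2.83) in Rfx2-/- mice. Wild type replicates 3 and 5 were lowest and replicate 5 overlapped the Rfx2-/- mice (log2 fold change -1.44, SE 0.33, edgeR adjusted p = 0.0216). It was thus not called, but 7 alternatives called Rsph14 lower. These were edgeR with total counts (adjusted p = 0.00624), without wild type replicate 5 (0.00627), without replicates 3 and 5 (log2 fold change -1.87, 9.63e-05, chosen after the values were seen), with the round spermatid score (0.00122) and with the Sertoli score (log2 fold change -2.29, 0.000222), as well as DESeq2 (0.000621) and voom (0.00052). Host and nested gene differed in opposite directions.

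The nearest counted gene downstream of Gnaz is Rab36, which encodes a small GTPase of the Rab family and begins 20.2 kb beyond its end. Rab36 had 53.8, 42.3, 35.4, 40.1 and 28.5 CPM in wild type and from 11.7 to 15.1 CPM (median 14.03) in Rfx2-/- mice. It fell in every Rfx2-/- mouse, as 5.2% of all tested genes did, and 2.895-fold on average (log2 fold change -1.53, SE 0.14, edgeR adjusted p = 0.000143). The nearest counted gene upstream, Pcdh15, a protocadherin, ends 317 kb before Gnaz and was scarce, with 1.26 ± 0.875 CPM (SD, n = 5) and 1.04 ± 0.134 CPM (SD, n = 6; edgeR adjusted p = 0.590). Annotated exons of Gnaz and Rsph14 share 0 of the 3612 exon nt of Gnaz, so their exons are apart in position. The library kit's strandedness is not given in the sources used here, so reads of opposite strands at the same position cannot be told apart.

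**Figure D4:**
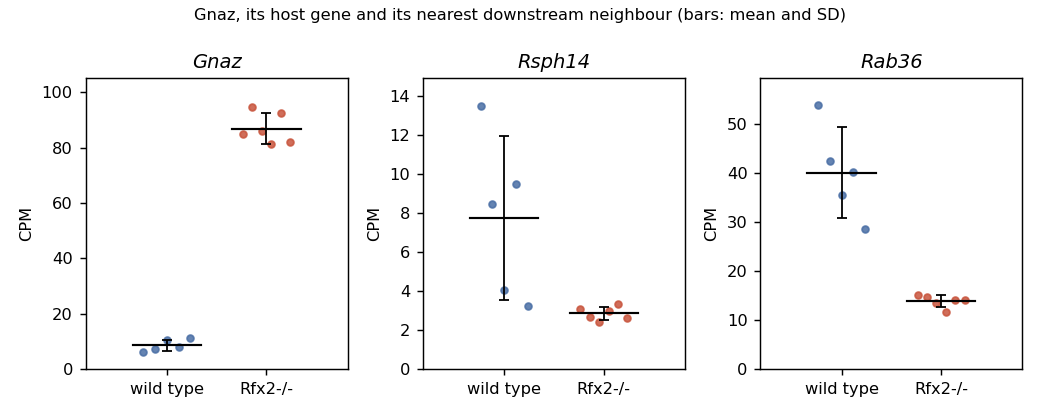
CPM of Gnaz, of Rsph14, whose intron holds it, and of Rab36, the next counted gene downstream, in each mouse (points; bars: mean and SD; 5 wild type, 6 Rfx2-/-; linear axes from 0). Gnaz is high in Rfx2-/- mice, at 87.0 CPM on average, and Rsph14 and Rab36 are low, at 2.84 and 13.8 CPM.

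RFX proteins bind the X-box, an imperfect inverted repeat. It was searched on both strands of the RefSeq promoters (300 nt of GRCm38.p6 each), as GTNNCC and NGNAAC with 1 to 3 further bases between them. Such a match stood in 4.37% of the 32851 promoters listed and, in at least 1 promoter, in 4.98% of the 27025 genes. None of the listed promoters of Gnai1, Gnai3, Gnao1, Gnaq, Gna11, Gna12, Gna13 and Gnas held these letters. Gnaz, Gnai2 and Rab36 have no entry. Both listed promoters of Rsph14 held the match GTCTCCTAGCAAC, at chr10:75032588-75032600 on the minus strand. Of 7 listed promoters of Rap1gap, 1 held GTCACCTTGGCAAC, at chr4:137681661-137681674 on the minus strand. The 1 listed promoter of Adcy1 held none.

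The other genes of G protein signalling were described from 12 lists with 109 genes, of which 79 were tested. Of these 79, 3 were called lower (3.8%, where 1.94% of all tested genes were) and 0 higher. The 3 were Adcy1, Rap1gap and Rxfp2. All 6 Rfx2-/- mice lay below all wild type mice in each of them, as was so in 5.2% of all tested genes. DESeq2 called 8 lower and 1 higher of the 79 (5.79% and 7.28% of all tested genes), voom 7 and 0 (4.33% and 2.33%), and an unadjusted edgeR p of at most 0.05 was reached by 23 lower and 7 higher (23.7% and 18.1%). Of the 79 log2 fold changes 56 were below 0 and 23 above, with a median of -0.22, against -0.05 over all tested genes, of which 8621 of 15745 were below 0. The medians of the single lists lay between -0.41, for other alpha subunits, and -0.03, for other RGS proteins. Medians of the 12 cell type marker lists ran from -0.54, for elongating spermatids, to 0.95, for round spermatids. The part of cell types in the medians of the signalling lists was not tested.

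**Figure D5:**
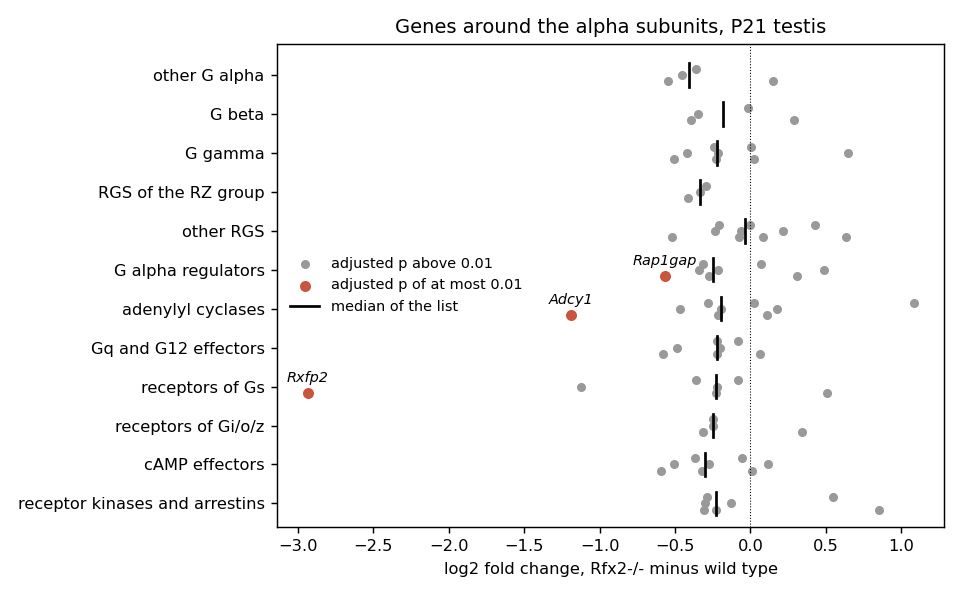
Log2 fold changes (Rfx2-/- minus wild type) of the 79 tested genes in 12 G protein signalling lists (points: genes; red: adjusted p of at most 0.01; black bars: list medians). Rap1gap, Adcy1 and Rxfp2 are the called genes, at -0.57, -1.19 and -2.94, and all list medians lie below 0.

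Adcy1 and Rap1gap are known partners of Gz: Adcy1 is a calmodulin-stimulated adenylyl cyclase that Gz inhibits, and Rap1gap, which inactivates the small GTPase Rap1, binds active Gz. Adcy1 had 7.89, 4.57, 4.83, 6.17 and 5.16 CPM in wild type and from 2.19 to 3.51 CPM (median 2.29) in Rfx2-/- mice. It fell in all of them, 2.28-fold on average (log2 fold change -1.19, SE 0.18, edgeR adjusted p = 0.00258). Without Rfx2-/- replicate 10 the adjusted p of Adcy1 was 0.01004, just past the limit. Rap1gap had 9.97, 10.5, 11.2, 9.602 and 9.21 CPM in wild type and from 5.95 to 7.92 CPM (median 6.58) in Rfx2-/- mice, without overlap, and fell 1.48-fold (log2 fold change -0.57, SE 0.10, edgeR adjusted p = 0.00652). The call of Rap1gap was lost 9 of 11 times when a single mouse was dropped (all but wild type replicate 1 and Rfx2-/- replicate 11), with adjusted p up to 0.0213, with the Sertoli score as a covariate (0.0595), with no filter beyond 1 count (0.0109) and without wild type replicates 3 and 5 (0.0161). In the fits without the call, the log2 fold change of Rap1gap was between -0.58 and -0.49. Adcy5, another cyclase that Gz inhibits, had 21.1 ± 7.31 CPM (SD, n = 5) and 18.1 ± 3.06 CPM (SD, n = 6; edgeR adjusted p = 0.444). Adcy10, the soluble cyclase of germ cells and the most abundant of the 9 cyclases tested, had 80.2 ± 48.1 CPM (SD, n = 5) and 170.0 ± 63.3 CPM (SD, n = 6; edgeR adjusted p = 0.0967), and it was lowest in wild type replicates 3 and 5. With the Sertoli score as a covariate the log2 fold change of Adcy10 was -0.11, against 1.09 without.

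RGS proteins of the RZ group speed the hydrolysis of GTP by Gz. None of the 3 was called by edgeR with TMM scaling. Rgs19 had 11.7, 9.45, 9.03, 10.6 and 9.59 CPM in wild type and from 6.69 to 8.62 CPM (median 7.30) in Rfx2-/- mice (log2 fold change -0.42, SE 0.10, edgeR adjusted p = 0.0272). Its genotypes did not overlap, as was so in 5.2% of all tested genes with Rfx2-/- lower. DESeq2 called Rgs19 lower (adjusted p = 0.00373), as did edgeR with total counts as library sizes (0.00885). Rgs17 had 10.5 ± 2.44 CPM (SD, n = 5) and 8.38 ± 1.73 CPM (SD, n = 6; edgeR adjusted p = 0.185). Rgs20 was scarce, with 1.51 ± 0.356 and 1.23 ± 0.178 CPM (edgeR adjusted p = 0.222). Of the 10 tested RGS proteins outside this group none was called, and Rgs22, a testis RGS protein with the highest RPKM among them, had 113 ± 42.9 CPM (SD, n = 5) and 119 ± 14.7 CPM (SD, n = 6). With the Sertoli score as a covariate Rgs22 was called lower (log2 fold change -0.62, edgeR adjusted p = 0.000926).

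Among receptors, Rxfp2, the receptor for INSL3, fell most. It had 14.9, 10.3, 3.63, 9.22 and 3.21 CPM in wild type and from 0.435 to 1.88 CPM (median 0.959) in Rfx2-/- mice, 7.65-fold lower on average and without overlap (log2 fold change -2.94, SE 0.51, edgeR adjusted p = 0.00608). Its counts in Rfx2-/- mice were 10 to 47, and its call was lost 7 of 11 times when a single mouse was dropped (wild type replicate 2 or 4, or Rfx2-/- replicate 7, 8, 9, 10 or 11), with adjusted p up to 0.0198. Lhcgr, the luteinizing hormone receptor of Leydig cells, just missed the limit, with 4.47, 6.63, 9.63, 4.56 and 7.92 CPM in wild type and from 2.401 to 3.66 CPM (median 3.07) in Rfx2-/- mice (log2 fold change -1.12, SE 0.21, edgeR adjusted p = 0.0102). Lhcgr was called lower with total counts (0.0092), DESeq2 (0.000109), voom (0.00373) and without wild type replicate 1 (0.00541) or 4 (0.00713), while with the Sertoli score its log2 fold change was -0.57 (edgeR adjusted p = 0.246). It was named after its values were seen, and the 6 Leydig cell markers, of which it is one, summed to between 131 and 319 CPM in wild type and 76.1 to 282 CPM in Rfx2-/- testis. Another of these markers, Hsd3b1, a steroidogenic enzyme also named after its values were seen, was called lower (91.2 ± 14.4 and 50.2 ± 6.23 CPM, edgeR adjusted p = 0.00126), as the 1 called gene of all 12 marker lists, and the part of Leydig cells in the Lhcgr difference was not tested. Fshr, the receptor of Sertoli cells for follicle stimulating hormone, had 13.3 ± 2.30 CPM (SD, n = 5) and 12.5 ± 1.39 CPM (SD, n = 6; edgeR adjusted p = 0.619). Of the 16 listed receptors that couple to Gi, Go or Gz, only 4 had enough counts to be tested and none was called. Adora1, an adenosine receptor and the most abundant of them, had 153 ± 30.3 CPM (SD, n = 5) and 129 ± 11.4 CPM (SD, n = 6; edgeR adjusted p = 0.145).

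No further gene of the lists was called in the fit reported. Of the 4 other alpha subunits tested, Gna14, a relative of Gnaq, was the most abundant, with 27.9 ± 7.66 CPM (SD, n = 5) and 21.7 ± 3.14 CPM (SD, n = 6; edgeR adjusted p = 0.148, log2 fold change -0.36 and, with the Sertoli score, 0.32). Of 4 beta subunits, Gnb1 had 419 ± 41.4 and 413 ± 22.7 CPM (edgeR adjusted p = 0.863). Gnb2, named after its values were seen, was higher in all Rfx2-/- mice, from 299.8 to 330.0 CPM against 215 to 291 in wild type (log2 fold change 0.29, edgeR adjusted p = 0.0504), as 6.5% of all tested genes were. Over the alternatives its adjusted p ranged from 0.00684 with DESeq2, which called Gnb2 higher, to 0.707. Of 8 gamma subunits, Gng12 had 87.6 ± 16.8 and 74.8 ± 7.95 CPM (edgeR adjusted p = 0.178). Ccdc88c, a non-receptor regulator of Gi subunits, had 156 ± 41.0 and 193 ± 13.96 CPM (edgeR adjusted p = 0.146), Arhgef1, an effector of Gna12 and Gna13, 59.0 ± 5.65 and 55.7 ± 3.08 CPM (0.366), Prkar1a, a regulatory subunit of protein kinase A, 369 ± 20.6 and 401 ± 10.6 CPM (0.135), and Grk4, a receptor kinase abundant in testis, 107 ± 39.5 and 157 ± 18.1 CPM (0.093). The log2 fold change of Grk4 was 0.55, and -0.11 with the Sertoli score. At an adjusted p of at most 0.05, Gpsm1 and Gpsm2, which hold Gi subunits in the GDP-bound form, and Plcb4, a phospholipase C beta, were lower too, and 8 of the 79 genes passed in all (10.1%, where 8.78% of all tested genes were lower). DESeq2 called Gpsm1, Gpsm2 and Plcb4 lower, and voom called Gpsm2 and Plcb4. EdgeR called Gpsm2 with total counts, and Plcb4 with the round spermatid score or without wild type replicate 4. Over the alternatives, adjusted p reached up to 0.596 for Gpsm1, 0.0691 for Gpsm2 and 0.121 for Plcb4.

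Patterns most like that of Gnaz were ranked by the root mean square difference of log2 CPM, each gene taken relative to its own wild type mean, over the 11 mice, among 15744 genes. This measure uses the difference between the genotypes, so its values carry no test. Dbn1, which encodes the actin-binding protein drebrin, was nearest, at 0.402, and averaged 24.0 ± 4.34 CPM in wild type (SD, n = 5) and 239 ± 58.2 CPM in Rfx2-/- testis (SD, n = 6). Oit1 followed at 0.878, from 27.3 ± 13.3 to 153 ± 19.4 CPM, and only these 2 genes lay within 1 of Gnaz. Ccdc189 stood at 1.11, ENSMUSG00000038194, for which no symbol was matched, at 1.16 and Afap1l1 at 1.16. Afap1l1 went from 8.21 ± 1.19 to 30.1 ± 2.34 CPM. In Oit1, Ccdc189, ENSMUSG00000038194 and Afap1l1, but not in Dbn1, wild type replicates 3 and 5 were the lowest. In Gnaz they were the highest of the wild type mice.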

How the data were processed

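Testis RNA of 5 wild type and 6 Rfx2-/- mice at postnatal day 21 was analysed. The members and gene lists were chosen with earlier results of these data known. The authors sequenced TruSeq libraries as single reads. The methods give different read lengths and aligners in different paragraphs, and the submitters' processing notes name CASAVA 1.8.2, STAR 2.4, featureCounts 1.4.6 and GRCm38. The deposited values are raw counts per gene over the merged exons of protein coding isoforms, without normalization, and the authors left out reads overlapping exons of different genes. The methods state that littermates of the same age were taken where this could be done, without giving the litter of each mouse, so litter could not enter the fit.

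Counts were fitted in R 4.3.3 with edgeR 4.0.16 (filterByExpr, TMM, glmQLFit, glmQLFTest), with Benjamini-Hochberg adjustment over the 15745 genes kept. CPM and RPKM were computed here, RPKM per kilobase of merged exons of protein coding transcripts in GENCODE M21, in which 22293 of the 23074 gene IDs were matched. Alternatives were DESeq2 1.42.0, limma 3.58.1 voom, other scalings and filters, scores of round spermatid or Sertoli markers as covariates, an adjusted p of at most 0.05, exons of all transcripts for RPKM, and each mouse left out. Leaving out wild type replicates 3 and 5 together was added after seeing the data. A floor of 3 counts (0.0852 to 0.139 CPM) covers counting error only. In simulated counts for this comparison (15545 genes), edgeR called 15 of 50 genes changed 1.5-fold, 31 of 50 changed 2-fold and 48 of 50 changed 8-fold, and none of 15345 unchanged genes. Each gene was simulated on its own, without differences in cell types between mice, so calls that follow from such differences are not covered. Named were all members, Rfx2, the RZ group, Adcy1, Adcy5, Rap1gap, in each list every called gene and the one with the highest wild type RPKM, genes overlapping a member or nearest to Gnaz, and the 5 genes most like Gnaz; others are marked where they stand. Coding sequences were aligned with Biopython, and promoters came from RefSeq. Protein sequences were not used here.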

Additional observations from a re-analysis of the deposited data

Results flagged for a closer look

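Among the named genes, 1 mouse stood apart from the rest of its group in 2 of 90 groups examined, by Dixon's test at the 95% level, which flags about 1 in 20 groups by chance. Adcy1 had 3.51 CPM in Rfx2-/- replicate 9, against 2.19 to 2.54 CPM in the other Rfx2-/- mice, and this value still lay below all wild type mice. Gm20721, which overlaps Gnas on the opposite strand, had 0.0284 CPM in wild type replicate 3, which is 1 read, and 0 in all other mice.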

How the results depend on the processing

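The log2 fold change of Gnaz stayed positive under all alternatives, between 3.16 with total counts as library sizes and 3.75 with the Sertoli score as a covariate, 3.54 with voom, 3.64 without wild type replicates 3 and 5, and 3.26 to 3.48 with each mouse left out. Because Gnaz was chosen for this rise in the same mice, its steady sign is a description and no support. None of the other 9 members was called lower or higher at an adjusted p of at most 0.01 under any alternative. In the fit reported, 1 (Gnas) passed 0.05. Over the alternatives adjusted p ranged from 0.011 to 0.423 for Gnas, from 0.0206 to 0.662 for Gnai1, from 0.0214 to 0.274 for Gna11 and from 0.0244 to 0.677 for Gnaq. Over all genes, the calls of 305 lower and 115 higher became 911 and 1146 with DESeq2, 697 and 347 with the round spermatid score, 501 and 39 with the Sertoli score, 682 and 367 with voom and 1382 and 968 at an adjusted p of at most 0.05. They ranged from 184 and 45 (without Rfx2-/- replicate 10) to 393 and 192 (without wild type replicate 1) with each mouse left out. Total counts moved the median of all genes from -0.05 to -0.22. In the signalling lists, 3 lower became 6 with total counts, 8 with DESeq2 (and 1 higher), 7 with voom, 8 at 0.05, and 0 to 5 with a mouse left out, 0 of them without Rfx2-/- replicate 10, where Adcy1 had an adjusted p of 0.01004. With exons of all transcripts, RPKM of Gnai2 became 60.4 and 58.5 in wild type and Rfx2-/- testis, of Gnao1 4.27 and 4.29 and of Gna11 24.7 and 22.2.

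Fold changes of genes not called in the fit reported changed sign as follows, and the causes were not tested. With the Sertoli score, log2 fold changes were 0.13 for Gnai1, 0.13 for Gnai2, 0.18 for Gnai3, -0.32 for Gnao1, 0.089 for Gnaq, 0.24 for Gna12, -0.22 for Gm11696, 0.32 for Gna14, 0.18 for Gnb1, 0.18 for Gng12, -0.62 for Rgs22 (called, edgeR adjusted p = 0.000926), -0.14 for Ccdc88c, -0.11 for Adcy10, 0.32 for Fshr, 0.20 for Adora1, -0.11 for Grk4 and 0.52 for Adcy5. With the round spermatid score they were 0.030 for Gnai3, -0.070 for Gnao1, 0.027 for Gna12, 0.050 for Gnb1, -0.067 for Rgs22, 0.034 for Fshr and 0.014 for Adcy5. Without wild type replicates 3 and 5 they were 0.033 for Gnai3, -0.16 for Gnao1, 0.045 for Gna12, 0.046 for Gnb1, -0.22 for Rgs22, 0.095 for Fshr and 0.21 for Adcy5. Total counts gave -0.14 for Gnao1, -0.12 for Gna13, -0.045 for Rgs22 and -0.045 for Prkar1a, voom -0.11 for Gnao1, -0.037 for Rgs22, 0.014 for Fshr and 0.058 for Adcy5, and DESeq2's size factors and its own test both 0.0068 for Gnb1. With each mouse left out, Gnai2 ranged from -0.079 to 0.0013, Gnao1 from -0.061 to 0.077, Rfx2 from -0.23 to 0.071, Pcdh15 from -0.46 to 0.22, Gnb1 from -0.075 to 0.036 and Rgs22 from -0.040 to 0.30. No paired analysis was possible because the replicate numbers of the genotypes are not shared.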
